A study of Mus musculus with 2 samples.

Results

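The Schlafen genes are a family of genes of blood and other cells, most of which lie side by side on mouse chromosome 11. Slfn1, Slfn2, Slfn3, Slfn4, Slfn5, Slfn8 and Slfn9 were described here, 7 of the 27998 genes in the feature tables of both libraries. They were chosen by symbol as 1 family with earlier results of these data known, in which Slfn2 stood among the larger differences of stem cells, so the difference between the libraries is given as a description and no test is attached to it. Of the other Schlafen symbols, Slfn14, Slfnl1 and the antisense gene Slfn5os were at 0 UMIs among the kept cells of both libraries, and Slfn10-ps was not analysed here.

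Schlafen proteins share an N-terminal Schlafen core domain that folds into a clamp for RNA, and several members bind or cleave tRNA. Slfn1 and Slfn2 are short members, Slfn3 and Slfn4 are of intermediate size, and Slfn5, Slfn8 and Slfn9 are long members with a C-terminal helicase-like domain. Many of them are induced by type I interferon. Slfn2 is known for holding T cells and monocytes in quiescence, since mice with a mutant allele lose these cells when they are activated, and Slfn2 protein binds tRNA and shields it from cleavage by the ribonuclease angiogenin. Trmt6 encodes the non-catalytic subunit of the methyltransferase that places m1A on tRNA, which is what the study deleted.

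Single-cell RNA was measured in LSK cells (lineage-negative, Sca-1+, c-Kit+), the fraction of bone marrow that holds haematopoietic stem and progenitor cells, from mice of 3 months. The Trmt6 WT library came, by its label, from Trmt6fl/fl mice, and the Trmt6 cKO library from Trmt6fl/fl, MX1-cre mice. Mx1-Cre is a recombinase under an interferon-inducible promoter that is active in blood cells and in other tissues. The paper differs from these labels: the legend of its single-cell experiment names Trmt6+/+ with Mx1-Cre beside Trmt6fl/fl with Mx1-Cre and says that the mice received the inducer pIpC, an interferon-eliciting double-stranded RNA. Which alleles the WT mice had, and whether they had Mx1-Cre and pIpC, cannot be told from the files. With 1 library for each genotype, genotype and library cannot be told apart, no test across samples was possible, and each interval below is a 95% interval of counting error alone.

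After filtering, 8148 WT and 8483 cKO cells were kept, with medians of 4168 and 10047 UMIs per cell, so the cKO library was 2.41 times deeper per cell. Trmt6 itself was counted at 63.8 CPM (61.4 to 66.3) in WT against 50.2 CPM (48.8 to 51.7) in cKO, where CPM is the UMIs of a gene scaled to a total of 1000000. This is a log2 ratio, here always cKO over WT unless another pair is named, of -0.34 (-0.41 to -0.28). The text of the sources used here does not state the deleted part of Trmt6, and the paper's targeting figure was not read. The 3′ tags may thus lie outside that part, and the level does not check the deletion. Of the genes that define the sort, Kit was lower in the cKO library (63.1 against 21.7 CPM), and Ly6a, which encodes Sca-1 and is itself interferon-inducible, was higher (34.3 against 142 CPM). The libraries differed in their makeup: the markers of maturing neutrophils summed to 5542 CPM in WT against 8.11 CPM in cKO, those of granulocyte-monocyte progenitors (GMP) to 7702 and 1523 CPM, and those of haematopoietic stem cells (HSC) to 208 and 334 CPM. The libraries shared 18 barcodes among the kept cells.

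The 7 members lay within 264 kb of chromosome 11 (GRCm38, chr11:82951349-83215154, GENCODE M21), in the order Slfn5, Slfn9, Slfn8, Slfn2, Slfn1, Slfn4, Slfn3. Slfn9 (ENSMUSG00000069793, chr11:82978390-82991830) and Slfn8 (ENSMUSG00000035208, chr11:83002158-83020810) were on the minus strand, and Slfn2 (ENSMUSG00000072620, chr11:83065112-83070678) and the other members on the plus strand. All are protein-coding. Because the long members resemble each other, the 3′ ends that such libraries read were compared: 9.59% of the 91-base windows in the last 500 bases of Slfn9 transcripts also occurred in Slfn8 or the pseudogene Slfn10-ps, and 9.25% of those of Slfn8 occurred in Slfn9 or Slfn10-ps. For Slfn3 the share was 0.675%, with Slfn4, and for Slfn1, Slfn2, Slfn4 and Slfn5 it was 0. No window of Slfn2 thus matched another annotated gene exactly. These are shares of exact windows and not of UMIs, so the split of UMIs between Slfn8 and Slfn9 is uncertain by an unmeasured amount.

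The promoters of Slfn2 and of the 3 long members are printed here, because Schlafen genes are known for their interferon response and the search below found its element in the long members and not in Slfn2. The sequences are those of RefSeq on GRCm38.p6, 250 bases before to 50 bases after the start of the transcript, 5′ to 3′ on the strand of the gene. Capitals mark GAAANNGAA, the core of the interferon-stimulated response element, found on either strand. For Slfn8, the first of 2 start sites is shown. The windows are chr11:83064862-83065161 for Slfn2 (plus strand), chr11:82951852-82952151 for Slfn5 (plus), chr11:83020761-83021060 for Slfn8 (minus) and chr11:82991781-82992080 for Slfn9 (minus).
Slfn2: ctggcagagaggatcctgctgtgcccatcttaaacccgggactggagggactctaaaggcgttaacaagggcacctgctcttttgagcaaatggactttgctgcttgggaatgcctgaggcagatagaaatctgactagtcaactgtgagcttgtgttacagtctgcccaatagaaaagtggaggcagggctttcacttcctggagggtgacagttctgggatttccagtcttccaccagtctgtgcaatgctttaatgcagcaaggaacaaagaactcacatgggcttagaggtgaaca
Slfn5: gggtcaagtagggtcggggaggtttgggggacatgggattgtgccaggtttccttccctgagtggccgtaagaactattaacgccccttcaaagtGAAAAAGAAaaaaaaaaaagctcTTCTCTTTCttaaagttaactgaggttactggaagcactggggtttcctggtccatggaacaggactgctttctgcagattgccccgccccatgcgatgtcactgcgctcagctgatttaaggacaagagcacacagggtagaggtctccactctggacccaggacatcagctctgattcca
Slfn8: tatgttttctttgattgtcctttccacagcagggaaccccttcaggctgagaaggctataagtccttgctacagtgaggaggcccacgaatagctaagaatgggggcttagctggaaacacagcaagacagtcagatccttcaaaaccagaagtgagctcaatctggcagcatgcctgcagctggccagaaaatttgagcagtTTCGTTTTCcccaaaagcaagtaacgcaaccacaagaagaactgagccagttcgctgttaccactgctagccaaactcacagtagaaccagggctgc
Slfn9: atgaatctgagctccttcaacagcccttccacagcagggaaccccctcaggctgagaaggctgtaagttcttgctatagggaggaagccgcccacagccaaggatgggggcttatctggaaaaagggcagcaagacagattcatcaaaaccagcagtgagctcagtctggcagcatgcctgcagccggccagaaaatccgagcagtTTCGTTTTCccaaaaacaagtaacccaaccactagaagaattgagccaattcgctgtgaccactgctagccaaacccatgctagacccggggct

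The core was present in 8.56% of 32851 promoters of this length. Slfn5 held it at 2 places, -155 and -132 from the start (to the first base of the match), and Slfn8 and Slfn9 each held it once, at -47 and -44, within an identical run of letters, TTCGTTTTC. Slfn2, Slfn1, Slfn3 and Slfn4 did not hold these letters in the window. The STAT site TTCNNNGAA, which 8.3% of all promoters held, and the C/EBP-ATF site TGATGNAAT, which 0.965% held, were in none of the members' windows, with both strands searched. A match of letters is a description and not a bound site.

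Slfn2 was the member that set the libraries apart. Over all kept cells it had 371 UMIs in WT and 4278 UMIs in cKO, which is 8.82 CPM (7.95 to 9.77) against 49.1 CPM (47.6 to 50.6). The cKO level was 5.56-fold the WT level, with a log2 ratio of 2.47 (2.32 to 2.63), and this ratio was the 50th from the top among the 9140 genes that reached 5 CPM in either library. Its ratio lay far from the median of those genes, -0.07.

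**Figure D1:**
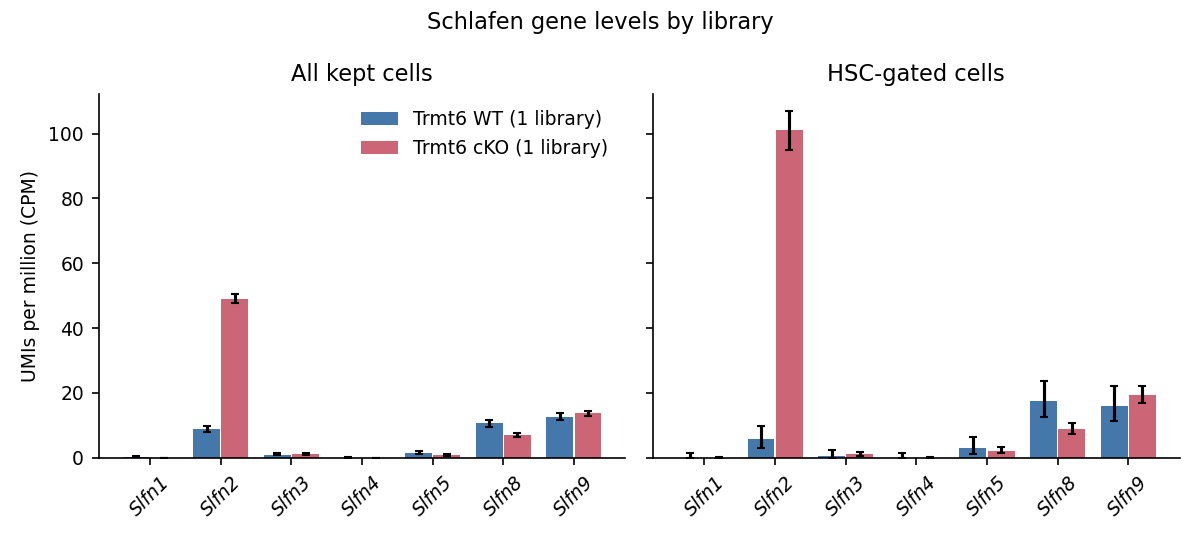
Levels of the 7 Schlafen genes in CPM over all kept cells (left) and HSC-gated cells (right), with the WT library in blue, the cKO library in red and 95% Poisson intervals as error bars. In HSC-gated cells the bar of Slfn2 reaches 5.67 CPM for WT and 101 CPM for cKO, while Slfn8 and Slfn9 stayed below 20 CPM in both libraries.

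None of the long members differed by 2-fold over all kept cells. Slfn9 had 535 UMIs in WT and 1196 in cKO, or 12.7 CPM (11.7 to 13.9) and 13.7 CPM (13 to 14.5), with a log2 ratio of 0.11 (-0.04 to 0.26). Slfn9 had the most UMIs of the members in the WT library. On CPM its libraries were not told apart by counting error, but with the scaling of TMM the ratio was 0.20 (0.06 to 0.35), with median-of-ratios factors and with a total without mitochondrial and ribosomal protein genes it was 0.21 (0.06 to 0.36), and with the same mix of classes it was -0.18. Slfn8 had 444 and 605 UMIs, 10.6 CPM (9.6 to 11.6) against 6.94 CPM (6.4 to 7.52), with a log2 ratio of -0.61 (-0.78 to -0.43). Slfn5, which codes for a long member with a nuclear localization, had 68 and 74 UMIs, 1.62 CPM (1.26 to 2.05) and 0.849 CPM (0.667 to 1.07), with a log2 ratio of -0.93 (-1.42 to -0.43). Over all kept cells both were lower in the cKO library than counting error allows, and neither reached 2-fold. For Slfn5 this depended on the cells compared: its log2 ratio was 0.66 (-0.31 to 1.68) in cells of 4000 to 8000 UMIs, a bin added after the data were seen, -1.10 with each cell scaled before averaging and -1.44 with the same mix of classes in both libraries.

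The intermediate and short members other than Slfn2 were rare. Slfn3 had 43 and 102 UMIs, 1.02 CPM (0.74 to 1.38) in WT and 1.17 CPM (0.954 to 1.42) in cKO, with a log2 ratio of 0.18 (-0.33 to 0.74). Slfn1 had 11 UMIs in WT and 2 UMIs in cKO, with a log2 ratio of -3.25 and a wide interval of -6.73 to -1.32. Slfn4 had 4 and 2 UMIs, with a log2 ratio of -1.90 (-5.52 to 0.75). Slfn3 did not differ beyond counting error, and the latter pair rested on a handful of molecules.

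Past 2-fold, 1 of the 7 members was higher in cKO (Slfn2) and 2 were lower (Slfn1 and Slfn4). With the same mix of classes in both libraries neither of the latter was past 2-fold, at -0.08 for Slfn1 and -0.09 for Slfn4. Of the genes that reached 5 CPM in either library, 2.89% were 2-fold or more higher and 5.18% were 2-fold or more lower, a minimum that 3 members met (Slfn2, Slfn8 and Slfn9). The median log2 ratio of the members was -0.61. Summed over the family, the level was 35.1 CPM (33.3 to 36.9) in WT and 71.8 CPM (70 to 73.6) in cKO. The makeup of that sum turned over: Slfn9 held 36.2%, Slfn8 30.1% and Slfn2 25.1% of the family's UMIs in WT, and Slfn2 held 68.3%, Slfn9 19.1% and Slfn8 9.67% in cKO.

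To see in which cells the members were counted, cells were gated by markers found in 2000 UMIs drawn from each cell, so that both libraries were read at the same depth. The HSC gate asked for 2 of 10 markers (Procr, Mllt3, Pdzk1ip1, Hlf, Mecom, Fgd5, Ctnnal1, Slamf1, Tcf15 and Esam) and held 657 WT and 1413 cKO cells, 8.06% and 16.7% of the kept cells. Their median depths were 3056 and 7853 UMIs. Gates for lymphoid-primed progenitors (LMPP), GMP, megakaryocyte-primed cells, maturing neutrophils and other lineages were set in the same way, a cell in more than 1 gate was put in a class of its own, and 44.9% of WT and 73.7% of cKO cells met no gate. In the HSC-gated cells the markers of other lineages also differed between the libraries, with GMP markers at 2689 against 1332 CPM and neutrophil markers at 304 against 4.35 CPM in WT and cKO, where 5 of the 9 neutrophil markers were lower by 2-fold or more and 2 were at 0 in cKO. Their part in the members' levels was not tested.

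In HSC-gated cells Slfn2 had 13 UMIs in WT and 1181 UMIs in cKO. This is 5.67 CPM (3.02 to 9.7) against 101 CPM (95 to 107), a 17.1-fold difference with a log2 ratio of 4.10 (3.37 to 5.06). When the gate used all UMIs of a cell, which put 651 WT and 3506 cKO cells in it, the log2 ratio was 3.11 (2.50 to 3.88). At 4.10 it was the 18th highest ratio among the 9490 genes that reached 5 CPM in either HSC gate, whose median was -0.13. Slfn2 was at a low level in WT HSC-gated cells and at its highest level of the larger gates in cKO HSC-gated cells.

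Slfn5, Slfn8 and Slfn9 did not share this pattern in HSC-gated cells, and the other 3 had too few UMIs to tell. Slfn9 had 37 and 227 UMIs, 16.1 CPM (11.4 to 22.2) against 19.3 CPM (16.9 to 22), with a log2 ratio of 0.25 (-0.24 to 0.80). Slfn8 had 40 and 104 UMIs, 17.4 CPM (12.5 to 23.8) and 8.86 CPM (7.24 to 10.7), with a log2 ratio of -0.99 (-1.52 to -0.41). In the WT HSC gate the intervals of the Slfn8 and Slfn9 levels overlapped, and in the cKO gate Slfn8 was below Slfn2 and Slfn9. Slfn5 had 7 and 26 UMIs, 3.05 CPM (1.23 to 6.29) and 2.22 CPM (1.45 to 3.25). Slfn3 had 1 UMI in WT but 13 in cKO, with a log2 ratio of 0.81 and an interval from -1.39 to 6.75. Slfn1 and Slfn4 were at 0 UMIs in the HSC gate of both libraries, which allows up to 1.31 CPM in WT.

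Of the 5 members with more than 3 UMIs in a library, 1 was 2-fold or more higher in the cKO HSC gate and 0 were 2-fold or more lower. In that gate 2.6% of the genes at 5 CPM or more in either library were higher and 8.13% lower by 2-fold or more, a level that 3 of the 5 members reached (Slfn2, Slfn8 and Slfn9). The median log2 ratio over those 5 members was 0.25. The family's sum was 42.7 CPM (34.7 to 52.1) in WT and 132 CPM (126 to 139) in cKO. Slfn2 took 13.3% of it in WT and 76.1% in cKO, so that without Slfn2 the members together were not higher in cKO.

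The difference of Slfn2 was not the same in every gate. In the LMPP gate it had 14 UMIs in WT and 17 UMIs in cKO, 3.05 CPM (1.67 to 5.12) and 6.09 CPM (3.55 to 9.75), with a log2 ratio of 0.99 (-0.11 to 2.13). In the GMP gate it had 98 and 12 UMIs, 7.47 CPM (6.07 to 9.11) and 6.06 CPM (3.13 to 10.6), with a log2 ratio of -0.25 (-1.30 to 0.57). Counting error did not separate the libraries in either gate, and the interval of neither gate met that of the HSC gate. In the megakaryocyte gate Slfn2 had 8 and 42 UMIs, 6.73 CPM (2.91 to 13.3) and 56.1 CPM (40.4 to 75.8), with a log2 ratio of 2.99 (1.95 to 4.36). The cells that met no gate held 72 UMIs in WT and 2919 in cKO, 4.33 CPM (3.39 to 5.46) and 42.8 CPM (41.3 to 44.4), with a log2 ratio of 3.29 (2.97 to 3.66). These ungated cells carried 68.2% of the Slfn2 UMIs of the cKO library, and the HSC gate a further 27.6%.

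**Figure D2:**
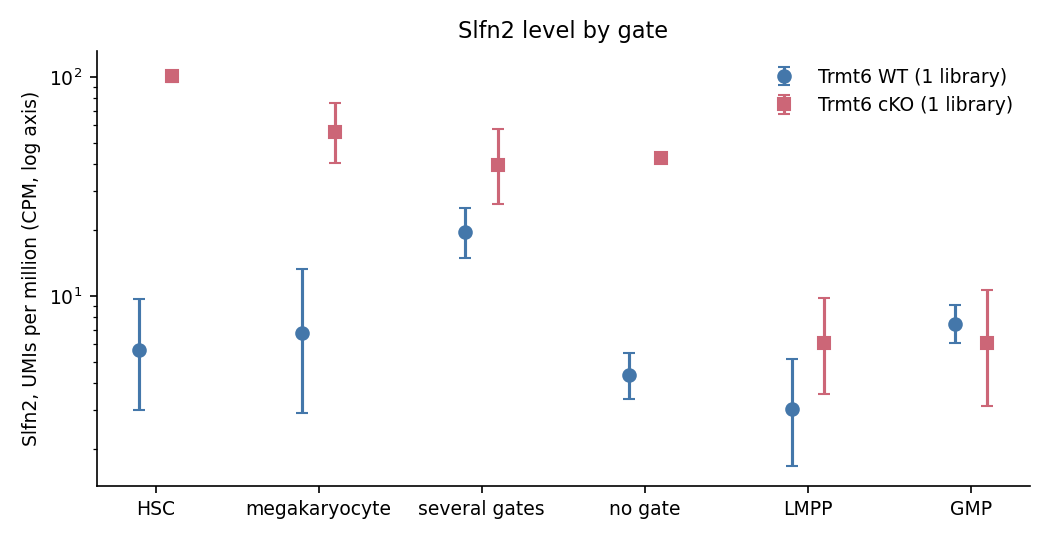
Slfn2 level in CPM (log axis) by gate, with the WT library as blue circles, the cKO library as red squares and 95% Poisson intervals. The libraries lay apart in the HSC, megakaryocyte and ungated cells and, by less, in cells of several gates (19.6 and 39.7 CPM). Their intervals overlapped in the LMPP gate (3.05 and 6.09 CPM) and the GMP gate (7.47 and 6.06 CPM).

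Within the cKO library alone, where no comparison of libraries enters, Slfn2 was ordered by gate. The HSC gate was 16.1-fold over the LMPP gate (log2 4.01, 3.36 to 4.83), 15.9-fold over the GMP gate (log2 3.99, 3.24 to 5.01) and 1.77-fold over the megakaryocyte gate (log2 0.83, 0.40 to 1.32). The levels of the LMPP and GMP gates had overlapping intervals. The median depths of the cKO gates were 7853 UMIs for HSC, 9058 for LMPP and 15400 for GMP cells, and the part of depth in this order was not tested. In the WT library the HSC gate did not stand apart: its log2 ratio was 0.90 (-0.32 to 2.09) over the LMPP gate and -0.35 (-1.36 to 0.44) over the GMP gate.

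The number of stem cell markers in a cell gave the same order at a finer scale, as a description made after the data were seen. In cKO cells with 0, 1, 2, 3 and 4 or more of the HSC markers, Slfn2 was at 32, 58.9, 89.9, 130 and 112 CPM. In WT cells it was at 9.69, 6.08, 4.29, 7.55 and 28 CPM, where the last value rested on 4 UMIs in 48 cells and had an interval of 7.63 to 71.7 CPM. Slfn2 was thus higher in cKO cells with more of the markers up to 3, and no such order was seen in WT. The cells with more markers were also shallower, with median depths of 11020, 9654, 8422, 6934 and 5953 UMIs in cKO, and Slfn2 itself was lower in deeper cKO cells, at 87.3 CPM in cells of 2000 to 4000 UMIs, 91.2 at 4000 to 8000, 43.4 at 8000 to 16000 and 23.7 from 16000. The part of depth in the order by markers was not tested.

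Because the libraries differed in depth, the Slfn2 ratio was computed again among cells of like depth. In cells of 2000 to 4000 UMIs the log2 ratio was 3.49 (2.99 to 3.98), in cells of 4000 to 8000 UMIs 3.54 (3.29 to 3.81), and in cells of 8000 to 16000 UMIs 2.11 (1.85 to 2.39). In the deepest cells, from 16000 UMIs, it was 0.69 (0.14 to 1.34). In HSC-gated cells it was 4.25 (3.05 to 5.78) at 2000 to 4000 UMIs and 4.31 (3.22 to 6.08) at 4000 to 8000 UMIs. Slfn2 was higher in cKO in each bin, by less in the deep ones.

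**Figure D3:**
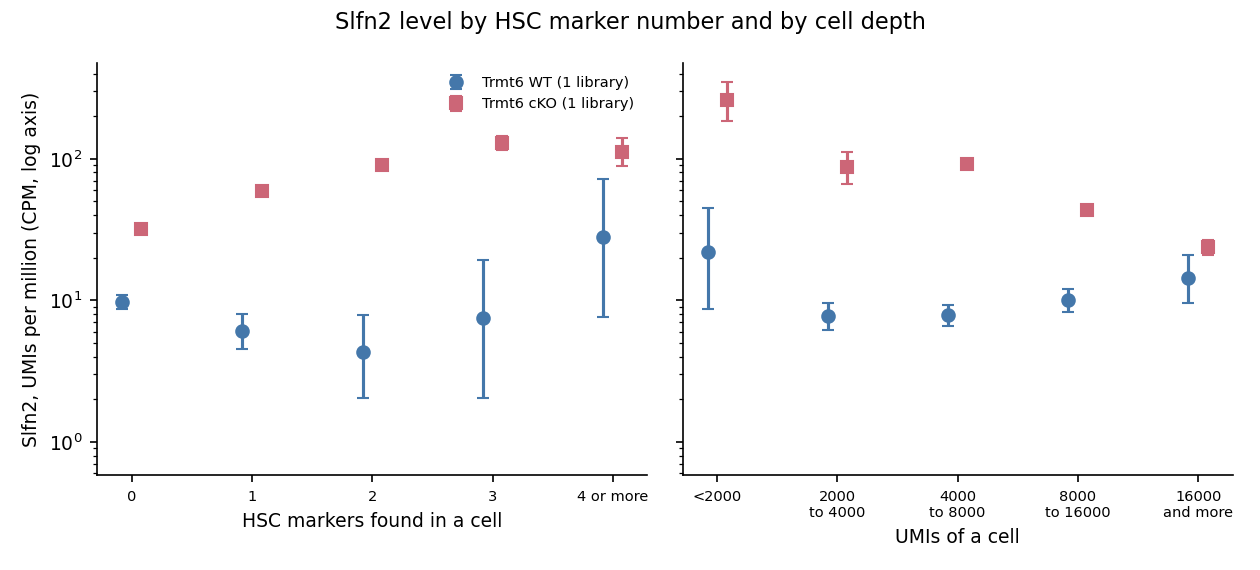
Slfn2 level in CPM (log axis) by the number of HSC markers found in a cell after thinning (left) and by the UMIs of a cell (right), with WT as blue circles, cKO as red squares and 95% Poisson intervals. The cKO level went from 32 CPM in cells without an HSC marker to 130 CPM in cells with 3, and cKO lay above WT in each depth bin.

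Slfn8 behaved otherwise among cells of like depth. Its log2 ratio was -0.27 (-1.50 to 0.61) at 2000 to 4000 UMIs, -0.01 (-0.34 to 0.31) at 4000 to 8000 UMIs and 0.02 (-0.33 to 0.41) at 8000 to 16000 UMIs, although it was -0.61 over all kept cells. In WT, Slfn8 was at 16.4, 10.4 and 6.34 CPM in these bins, and in cKO at 12.9, 10.3 and 6.47 CPM. The level was therefore lower in deeper cells of both libraries, and at matched depth the libraries did not differ beyond counting error. The Slfn8 ratio was 0.57 (-1.47 to 2.40) below 2000 UMIs. From 16000 UMIs it was 0.97 (-0.31 to 3.05), with 4 UMIs in WT and 57 in cKO. In HSC-gated cells of 4000 to 8000 UMIs the Slfn8 ratio was 0.06 (-0.92 to 1.33). Slfn9 differed in sign between bins, with -0.57 (-0.87 to -0.29) at 4000 to 8000 UMIs, 0.35 (0.10 to 0.62) at 8000 to 16000 UMIs and 1.48 (0.34 to 3.27) from 16000 UMIs, where it had 5 UMIs in WT and 100 in cKO. In HSC-gated cells of 4000 to 8000 UMIs the Slfn9 ratio was -0.72 (-1.48 to 0.16).

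**Figure D4:**
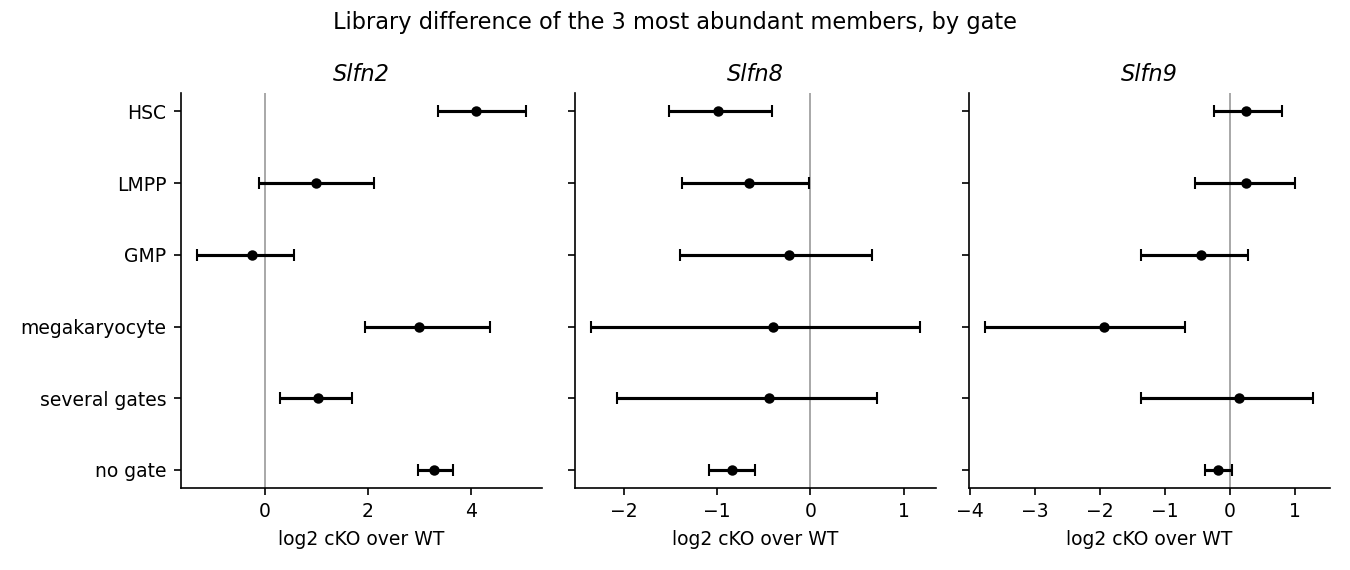
Log2 ratio of cKO over WT for Slfn2, Slfn8 and Slfn9 by gate, with 95% exact intervals of counting error and a line at 0 (no difference); the 3 horizontal axes differ in range. Slfn2 ranged from -0.25 in the GMP gate to 4.10 in the HSC gate, and Slfn9 was lowest in the megakaryocyte gate at -1.94.

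For Slfn2 the share of cells in which it was seen differed in the same direction as its level. After thinning to 2000 UMIs, a Slfn2 UMI was found in 111 of 7948 WT cells, 1.4% (Clopper-Pearson interval 1.15 to 1.68), and in 739 of 8378 cKO cells, 8.82% (8.22 to 9.45). In the HSC gate it was found in 1.22% (0.527 to 2.39) of WT and 17.3% (15.3 to 19.3) of cKO cells, and with all UMIs in 1.52% and 32.9%. Beside this, the share in the cKO LMPP gate was 1.05% (0.217 to 3.03), at a median of 9058 UMIs against 7853 in the cKO HSC gate. The part of free RNA in these shares was not tested. Most positive cells of the cKO HSC gate held 1 UMI after thinning (12.5% of the gate), 3.33% held 2 and 1.49% held 3 or more. The highest count in a single cKO cell was 16 UMIs. Slfn8 was found in 3.35% (2.11 to 5.03) of WT and 2.19% (1.5 to 3.1) of cKO HSC-gated cells, and Slfn9 in 3.2% (1.99 to 4.84) and 3.61% (2.7 to 4.72), so for both the intervals of the libraries overlapped, also for Slfn8, whose level differed beyond counting error in this gate. UMIs of 2 different members were found in 0.152% of WT and 1.63% of cKO HSC-gated cells.

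Most of the WT Slfn1 UMIs and a part of the WT Slfn2 UMIs came from cells gated as maturing neutrophils. The neutrophil gate, which asked for 3 of 9 markers such as S100a8, Camp and Ltf, held 48 WT cells and 0 cKO cells. These 48 cells, 0.589% of the WT cells, held 9 of the 11 WT Slfn1 UMIs, 26.9 CPM (12.3 to 51). They also held 76 Slfn2 UMIs, 20.5% of all in WT, at 227 CPM (179 to 284), which was 30.4-fold the level of the WT GMP gate. Slfn4, a gene of myeloid cells, had 2 of its 4 WT UMIs there. Slfn3, Slfn5, Slfn8 and Slfn9 were at 0 UMIs in these cells, which allows up to 8.96 CPM. Slfn2 was also high in both libraries among the few cells of the monocyte and dendritic cell gate, at 200 CPM (127 to 301) in 25 WT cells and 223 CPM (145 to 326) in 22 cKO cells, and it was at 102 CPM (37.3 to 221) in 17 cKO cells of the T and NK gate. In neutrophil-gated WT cells there was 1 Slfn2 UMI for each 1000 UMIs of S100a8, and in WT HSC-gated cells there were 48.9 for each 1000. The latter rested on 13 Slfn2 UMIs, and the part of neutrophil RNA in the Slfn2 level of WT HSC-gated cells was not tested. Without the cells of the mature and lymphoid gates, the Slfn2 log2 ratio over all other kept cells was 2.91 (2.47 with them), and Slfn1 and Slfn4 were then at 3 UMIs or fewer in both libraries, too few for a ratio.

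The long members were spread over the gates in other ways. In the WT library Slfn8 was at 17.4 CPM in the HSC gate, 15.5 CPM (12.1 to 19.5) in the LMPP gate and 6.18 CPM (4.91 to 7.68) in the GMP gate, and the HSC gate exceeded the GMP gate by a log2 ratio of 1.51 (0.91 to 2.06). The WT GMP gate was deeper, with a median of 7149 UMIs against 3056, and Slfn8 was lower in deeper cells by its values above. The part of depth in the difference between these gates was not tested. HSC and LMPP gates did not differ beyond counting error (0.18, -0.43 to 0.75). In cKO the HSC, LMPP and GMP gates were at 8.86, 9.67 and 5.05 CPM, the last from 10 UMIs. There the HSC over GMP log2 ratio was 0.75 (-0.13 to 1.91), an interval that overlapped that of WT. Slfn9 was highest in the WT megakaryocyte gate, with 33 UMIs and 27.8 CPM (19.1 to 39), against 5 UMIs and 6.67 CPM (2.17 to 15.6) in cKO, with a log2 ratio of -1.94 (-3.77 to -0.69). When cells were counted in each gate they met, this ratio was -1.27 (-2.65 to -0.20), and that of Slfn9 in the HSC gate went from 0.25 to 0.57 (0.09 to 1.11). The median depth of the megakaryocyte gate was 4338 UMIs in WT and 10910 in cKO. In both libraries Slfn9 was higher in the HSC than in the LMPP gate, by a log2 ratio of 1.04 (0.34 to 1.74) in WT and 1.03 (0.47 to 1.70) in cKO. Slfn5 was found in the WT LMPP gate with 9 UMIs and in the cKO LMPP gate with 0 of 2792291 UMIs. In cKO, 35.1% of its 74 UMIs were in the HSC gate and 60.8% in ungated cells.

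Because the family is linked to quiescence, levels were set against G2/M transcripts, a gate on which is not a count of dividing cells. Cells with 3 or more of 16 G2/M genes after thinning were compared with cells that had 0 of them. Slfn5 showed the widest contrast: in WT it was at 0.162 CPM (0.0334 to 0.473) in G2/M-gated cells and 2.87 CPM (1.99 to 4.02) in cells without G2/M genes, with a log2 ratio of 3.95 (2.48 to 6.50), and in cKO at 0.232 CPM (0.0934 to 0.479) and 1.49 CPM (1.09 to 1.99), with a log2 ratio of 2.60 (1.53 to 4.08). Slfn5 was thus lower in the G2/M-gated cells of both libraries, where it had 3 UMIs in WT and 7 in cKO. Slfn2 differed by library, being at 9.87 CPM in G2/M-gated and 8.03 CPM in other WT cells (log2 -0.29, -0.67 to 0.07), and at 37.2 and 60.6 CPM in cKO (log2 0.71, 0.60 to 0.81). The Slfn2 ratio of cKO over WT was 1.91 (1.69 to 2.15) in G2/M-gated cells and 2.91 (2.62 to 3.23) in cells without G2/M genes. Slfn8 was higher without G2/M genes in WT (log2 0.65, 0.33 to 0.97) and alike in cKO (0.12, -0.16 to 0.40). Slfn9 did not differ beyond counting error in WT (0.04, -0.29 to 0.36) or in cKO (-0.11, -0.33 to 0.10). Cells without G2/M genes were also shallower, with medians of 3330 against 6278 UMIs in WT and 8631 against 11990 in cKO, and the part of depth in these contrasts was not tested.

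Within the cKO HSC gate Slfn2 and Slfn9 differed in opposite directions between cells with and without G2/M genes. Slfn2 was at 123 CPM (114 to 133) in the 705 cKO HSC-gated cells without a G2/M gene and at 82.8 CPM (76 to 90.1) in the 708 with 1 or more. Slfn9 was at 12.6 CPM (9.77 to 16.1) and 24.7 CPM (21.1 to 28.9) in the same cells, with a log2 ratio of -0.96 (-1.41 to -0.55) for cells without over cells with G2/M genes. In WT the Slfn9 ratio was -1.11 (-2.37 to -0.06), with 10 and 27 UMIs, and that of Slfn2 was 0.49 (-1.30 to 2.35), not beyond counting error. The Slfn8 ratio was 1.31 (0.33 to 2.41) in WT and 0.21 (-0.38 to 0.79) in cKO. The cKO over WT ratio of Slfn2 was 4.09 (3.13 to 5.50) without G2/M genes, and its interval with them was 2.98 to 5.57, so the sets did not differ beyond counting error. The HSC-gated cells with G2/M genes were deeper, with medians of 8874 against 7017 UMIs in cKO and 3362 against 2866 in WT. In cKO HSC-gated cells of 4000 to 8000 UMIs, Slfn9 was at 13.9 CPM and Slfn2 at 136 CPM. At 8000 to 16000 UMIs they were at 23.1 and 82.3 CPM, and the part of depth in these contrasts was not tested.

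Genes around the family's known functions were set beside the members in HSC-gated cells. Of 40 type I interferon response genes, 35 reached 5 CPM in either library, of which 11 were higher and 24 lower in cKO, 0 higher and 1 lower by 2-fold or more, with a median log2 ratio of -0.24. Over all 9490 genes at that level 39.7% were higher in cKO and the median was -0.13, so ratios below 0 were also the more common ones among all genes, and the counts of each list here are to be read against that. Parp9 (6.11 CPM in WT, 12.4 in cKO, log2 0.98), Bst2, the antiviral tetherin (136 and 207 CPM, 0.61), and Lgals3bp (61.1 and 85.4 CPM, 0.48) had the highest ratios. Ifi27l2a (26.2 and 11.4 CPM, -1.20), Oasl1 (5.23 and 2.98 CPM, -0.85) and Ifit1 (14.4 and 8.09 CPM, -0.84) had the lowest. The interval of Oasl1, -1.79 to 0.27, included 0. Slfn2, at a log2 ratio of 4.10, lay outside the range of all 35. Over all kept cells the list's median was -0.12, with 13 of 31 genes higher and 18 lower, beside 42.9% of all genes higher.

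The receptors and signal genes of interferon (12 genes) had a median log2 ratio of -0.33 in the HSC gate, with 3 higher and 9 lower, 2 of them by 2-fold or more, where 39.7% of all genes were higher and 8.13% lower by 2-fold or more. Ifngr2 (0.64), Socs1 (0.45) and Tyk2 (0.15) were highest, and Socs3 (-1.37), Jak2 (-1.07) and Irf2 (-0.57) lowest. The intervals of Socs1 (-0.08 to 1.06) and Tyk2 (-0.67 to 1.17) included 0. Genes of tRNA cleavage, splicing and protection (18 at the minimum level) had a median of 0.11, with 11 higher and 7 lower and 0 past 2-fold. Xpot, the tRNA exporter (18.8 and 33.7 CPM, 0.83), and Trdmt1 and Nsun2, which methylate tRNA cytosines (0.81 and 0.45), were highest, and Trnt1 (-0.48), Dis3l2 (-0.42) and Fam98b (-0.26) lowest. Of these, Trdmt1 (-0.11 to 2.06) and Dis3l2 (-1.02 to 0.27) did not differ beyond counting error. Rnh1, the inhibitor of the angiogenin family, was at 133 and 122 CPM and is named for that role, outside the rule for named genes.

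Most quiescence factors had ratios below 0 in HSC-gated cells. Of 17 at the minimum level in the HSC gate, 3 were higher and 14 lower, 6 of them by 2-fold or more, with a median of -0.54, beside 39.7% higher and 8.13% lower by 2-fold or more over all genes. Of those below 0, Cdkn1a (-0.04, -0.27 to 0.21) and Tsc1 (-0.42, -1.22 to 0.54) did not differ beyond counting error, and they are named here outside the rule for named genes. Btg2, an antiproliferative gene that responds early to stimuli, was at 131 and 21.8 CPM (-2.59), Klf4 at 19.6 and 4.69 CPM (-2.07) and Klf6 at 167 and 40.3 CPM (-2.05). Klf2, a quiescence factor of T cells, was at 82 and 20.5 CPM (-2.00), and was among the 3 lowest over all kept cells but not in this gate. Cdkn1c, the cell cycle inhibitor of stem cells, was the highest at 28.3 and 45.8 CPM (0.68), followed by Tob1 (0.25, -0.24 to 0.82) and Foxo1 (0.12, -0.67 to 1.09), whose intervals include 0. Slfn2 and Cdkn1c were thus on the high side in cKO HSC-gated cells, and Klf2 and Btg2 on the low side.

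**Figure D5:**
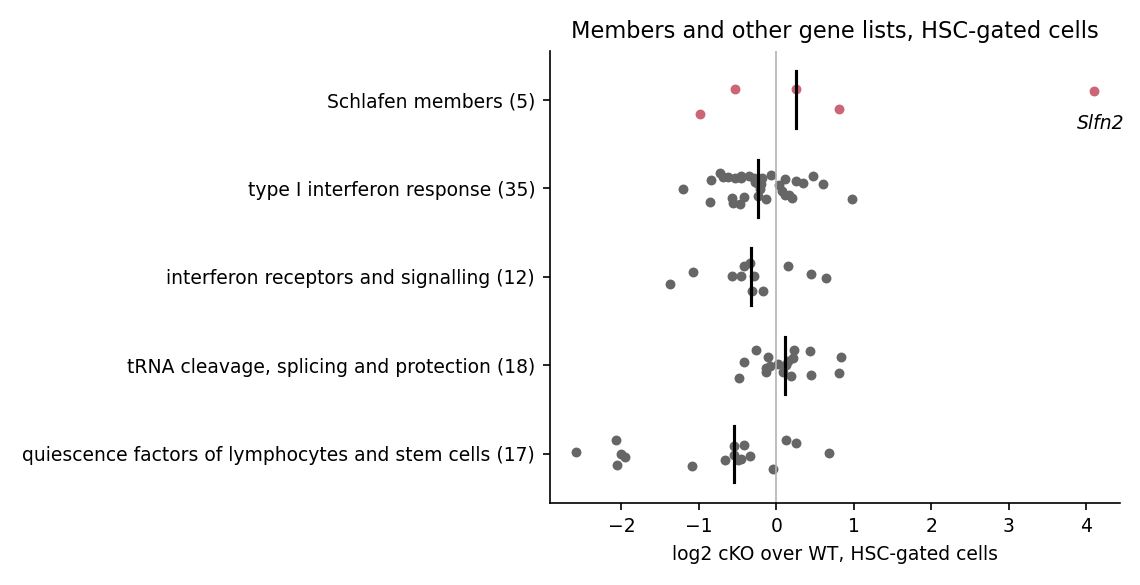
Log2 ratios of cKO over WT in HSC-gated cells for the 5 Schlafen genes with more than 3 UMIs in a library (red) and for the genes of 4 lists that reached 5 CPM in either library (grey), with a black bar at each median; vertical scatter within a row has no meaning. Slfn2 lies at 4.10, and the list medians at -0.24, -0.33, 0.11 and -0.54 from top to bottom.

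The genes whose levels followed a member most closely were sought among 3995 genes over the 12 pairs of gate and library with 30 or more cells, which share libraries and depth and are no replicates. For Slfn2 these included Aprt (Pearson r = 0.85) and Rab28 (0.85). Without the WT neutrophil gate, a choice made after the data were seen, they were Socs2 (0.90), Cox4i2 (0.88) and Cish (0.85). The likeness of Slfn2 was thus set in part by that gate. For Slfn9 the genes were Ctnnb1 (0.89), Ebpl (0.88) and Gbas (0.86). For Slfn1, Ppp1r42, Ceacam10 and Ly6g each had an r that rounded to 1, which rested on the neutrophil gate alone, since Slfn1 was at or near 0 in the other gates. Among themselves, Slfn5 and Slfn8 had an r of 0.76 and Slfn8 and Slfn9 of 0.66, while Slfn2 had -0.15 with Slfn8 and -0.13 with Slfn9. Slfn5 and Slfn8 were under the 20 CPM minimum of this search, with highest levels of 3.05 and 17.4 CPM. Both were at 0 UMIs in the WT neutrophil, erythroid and basophil or mast cell gates, so shared zeros enter their r.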

How the data were processed

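UMI counts per gene and cell barcode of 1 WT and 1 cKO library, grouped by title, were deposited by the authors, who made them with Cell Ranger 6.0.0 on mm10 (per the labels). The labels name the 3′ kit version 2, and the study's methods version 3. The limits of the study were applied: more than 200 genes, fewer than 4000 (WT) or 4500 (cKO), under 10% (WT) or 5% (cKO) mitochondrial UMIs, and under 5% hemoglobin UMIs. Doublets were scored against simulated pairs of cells (50 neighbours, 20 components, 1500 genes), and the top 0.8% per 1000 barcodes removed, 615 WT and 668 cKO cells. Of the kept cells, 200 WT and 105 cKO cells had fewer than 2000 UMIs and were left out of gates and thinned shares.

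Gates used 2 markers for HSC, LMPP and megakaryocyte cells, and 3 for GMP, neutrophil and monocyte/DC cells, with 10 or more UMIs of them. The thresholds were set after the marker distributions were seen. Levels are CPM of summed UMIs. Ratios used 0.5 prior counts and conditional exact binomial intervals, CPM exact Poisson and shares Clopper-Pearson intervals (scipy 1.17.1). Where a value was 0, the limit is 3 counts. No ratio is given where both libraries held 3 UMIs or fewer. The code was tested on simulated data. Members and lists were chosen with earlier results of these data known. The rule for named genes took all members, the 3 highest and 3 lowest ratios of each list and the 3 genes most like a member at 20 CPM or more in a gate, from genes at 50 CPM or more, on log2(CPM + 10); 1 gene that this rule took is not reported here. Alternatives were TMM factors (edgeR 4.0.16), size factors by the median of ratios, other totals, cell filters, seeds, thinning depths, gates and a prior of 3. Promoter and gene models were matched by gene ID or symbol, 7 of 7.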

Additional observations from a re-analysis of the deposited data

How the results depend on the processing

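Slfn2 was higher in cKO under all 12 alternatives over all kept cells and all 16 in HSC-gated cells. Over all kept cells its log2 ratio went from 2.47 to 2.79 with each cell scaled before averaging, 2.85 with the same mix of classes, 2.91 without the mature and lymphoid gates, 2.91 in cells without G2/M genes and 3.54 in cells of 4000 to 8000 UMIs. In HSC-gated cells it went from 4.10 to 3.11 when the gate used all UMIs, which put 651 WT and 3506 cKO cells in it, and lay between 3.38 and 4.40 under the others. The 3 members past 2-fold over all kept cells became 1 without the mature and lymphoid gates and 1 among members at 5 CPM or more, and in both cases it was Slfn2. They became 2 with the same mix, where Slfn1 (-0.08) and Slfn4 (-0.09) were no longer past 2-fold and Slfn5 (-1.44) was. They became 2, Slfn2 and Slfn1, in cells without G2/M genes, where Slfn4 had too few UMIs for a ratio. With each cell scaled the count stayed at 3, with Slfn5 (-1.10) past 2-fold in place of Slfn1 (-0.98), and at 4000 to 8000 UMIs Slfn3 (-1.37) was past 2-fold and Slfn5 turned to 0.66. In HSC-gated cells the 1 member became 2 with a prior of 3, with doublets kept, with 1 marker more, by marker score, with another seed and at 1000 or 3000 UMIs, and 3 with the gate on all UMIs or with 1 marker fewer. The added member was Slfn8 with a prior of 3, with doublets kept and at 3000 UMIs, Slfn5 with 1 marker more (-1.81), by marker score (-1.08) and at 1000 UMIs (-1.29), and Slfn3 (2.39, higher) with another seed; both Slfn5 and Slfn8 were added where the count was 3. In HSC-gated cells Slfn8 ranged from -1.42 to 0.19 around -0.99 and Slfn5 from -2.46 to 0.59 around -0.53. The members' median went from -0.61 to -0.09 with the same mix, 0.10 without the mature and lymphoid gates and -0.29 at 4000 to 8000 UMIs. In HSC-gated cells it went from 0.25 to -0.36 with a prior of 3 and -0.30 with 1 marker fewer. No ratio that was past 2-fold under the main settings changed sign under the alternatives tried. Alternatives at 4000 to 8000 UMIs and without shared barcodes were added after the data were seen. No paired analysis was possible because each genotype has 1 library. Depth limits Slfn1, Slfn3, Slfn4 and Slfn5, whose counts were below 110 UMIs in each library.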
